A study of Mus musculus with 16 samples.

Results

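The ribosome of the cytosol is built from ribosomal RNA and a fixed set of small proteins, and the messages for these proteins were read here as a group. Of the 8251 genes that the arrays named through a probe set with 1 gene symbol, 35 were cytosolic ribosomal protein genes, 17 of the large subunit (symbols starting with Rpl) and 18 of the small subunit (symbols starting with Rps). They were chosen by symbol alone, as Rpl or Rps followed by a number with its usual letter endings, or as Rpsa and the stalk genes, with the Rps6k kinases and pseudogenes left out. The 35 genes had 49 probe sets, 25 genes had 1 each, and where a gene had several the brightest by mean over all arrays stood for it. A further 39 probe sets named a ribosomal protein gene together with other symbols and were not used. For this reason 30 genes, among them Rps2, Rps6, Rpl3, Rpl5 and the stalk gene Rplp1, were not read here.

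The 16 arrays came from 6 sorted mouse lymphocyte populations in 3 pairs that set an innate-like population beside an adaptive one. NKT cells of the spleen, which carry NK1.1 beside CD3 and CD4 (NKT, n = 3), were paired with splenic CD3+CD4+ cells without NK1.1 (CD4T, n = 3), both from wild-type C57BL/6 mice. Peritoneal B1 cells with high IgM, intermediate IgD and CD11b (B1, n = 2) were paired with splenic B2 cells with intermediate IgM, high IgD and no CD11b (B2, n = 2), also wild-type C57BL/6, so that cell type and body site change together in this pair. The third pair came from RTOC, an abbreviation the labels do not spell out, whose strain they do not give: TCRb+CD8a+CD8b- cells selected by a high dose of the agonist Smcy (CD8aaT, n = 3, 10 mM as written) and TCRb+CD8a+CD8b+ cells selected by a low dose (CD8abT, n = 3, 100 nM), so that cell type and dose change together there. A sort gave about 100000 cells for each sample from spleen or peritoneum and about 50000 for each from RTOC. NK1.1 selects NK1.1-bearing cells and not every NKT cell, and no label gives an age, an antigen tetramer or the number of animals behind a sample.

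Every cell needs ribosomal proteins in matched amounts, because nearly all of them go into each ribosome in equal number and unused copies are broken down. In resting lymphocytes ribosome content is low, and activation through the antigen receptor brings growth in which Myc drives ribosome production and the mTOR kinase controls how well the messages for ribosomal proteins are translated. These messages begin with a short pyrimidine run, the 5′ terminal oligopyrimidine motif, and much of their control lies in translation, which an array of RNA does not see.

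The sequences around the start sites of 6 genes whose values are described later are given first, since the genes differed in how they varied from array to array. They are from RefSeq, build GRCm38.p6, on the coding strand, and run from 60 bases before to 30 bases after the annotated start. Capitals mark matches to any of 4 searched words: CTTTCC, a plain stand-in for the pyrimidine run, CCGGAAG, the core word of ETS-type sites, AAGATGG, a YY1-type word, and TATAAA. Rplp0 lies at chr5:115559407-115559496 on the plus strand, Rpsa at chr9:120127706-120127795 on the plus strand, Rps18 at chr17:33955636-33955725 on the minus strand, Rps3 at chr7:99483680-99483769 on the minus strand, Rps3a1 at chr3:86142639-86142728 on the minus strand and Rps10 at chr17:27635215-27635304 on the minus strand.
Rplp0: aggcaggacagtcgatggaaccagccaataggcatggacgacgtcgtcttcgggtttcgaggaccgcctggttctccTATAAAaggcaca
Rpsa: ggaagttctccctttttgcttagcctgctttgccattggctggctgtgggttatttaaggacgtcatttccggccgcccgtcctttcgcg
Rps18: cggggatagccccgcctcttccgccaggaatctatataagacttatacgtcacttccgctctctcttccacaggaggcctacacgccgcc
Rps3: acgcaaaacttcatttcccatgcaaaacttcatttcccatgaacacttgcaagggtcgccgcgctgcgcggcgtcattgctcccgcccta
Rps3a1: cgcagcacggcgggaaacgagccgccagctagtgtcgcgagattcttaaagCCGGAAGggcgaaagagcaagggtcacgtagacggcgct
Rps10: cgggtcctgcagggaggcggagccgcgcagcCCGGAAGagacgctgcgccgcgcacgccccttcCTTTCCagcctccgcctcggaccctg

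Of the 35 genes, 28 had a start-site sequence in the RefSeq table. CTTTCC on the coding strand between 50 bases before and 50 after the start was found in 11 of the 28 (39.3%), against 5.43% of all 27025 genes with a sequence. CCGGAAG on either strand, from 250 bases before to 50 after, was found in 12 (42.9%, against 9.93% of all genes), AAGATGG on either strand in 7 (25.0%, against 7.28%), and TATAAA on the coding strand in 3 (10.7%, against 9.77%). CCGGAAG and AAGATGG can share the letters AAG where they meet, and a match is a description of the sequence only. Rplp0, which is described most fully, held none of the words but TATAAA, and that match lay after the annotated start.

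Replicate arrays of a group differed in these genes, and the differences between groups are read against that. In CD4T, replicate 1 was the highest of the 3 arrays for 28 of the 35 genes, where 60.4% of all probe sets were highest there, and its median over the genes lay 0.36 above the mean of the other arrays on the log2 scale. In NKT, replicate 1 was highest for 28 genes (57.2% of all probe sets), with a median shift of 0.21. In B1 it was the higher array for 31 genes (64.6% of all probe sets) and in B2 for 23, near the share over all probe sets (58.9%). In the RTOC groups replicate 1 did not stand out in this way, and replicate 3 was highest for 17 genes in CD8abT (33.2% of all probe sets) and 18 in CD8aaT (33.0%). The shift was not shared by all genes: Rpsa, Rpl13a and Rpl32 were 1.26, 1.04 and 0.92 higher in CD4T replicate 1 than in the mean of the others, whereas Rps18, Rpl6 and Rps4x were 0.58, 0.48 and 0.41 lower there (differences of -0.58, -0.48 and -0.41).

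**Figure D1:**
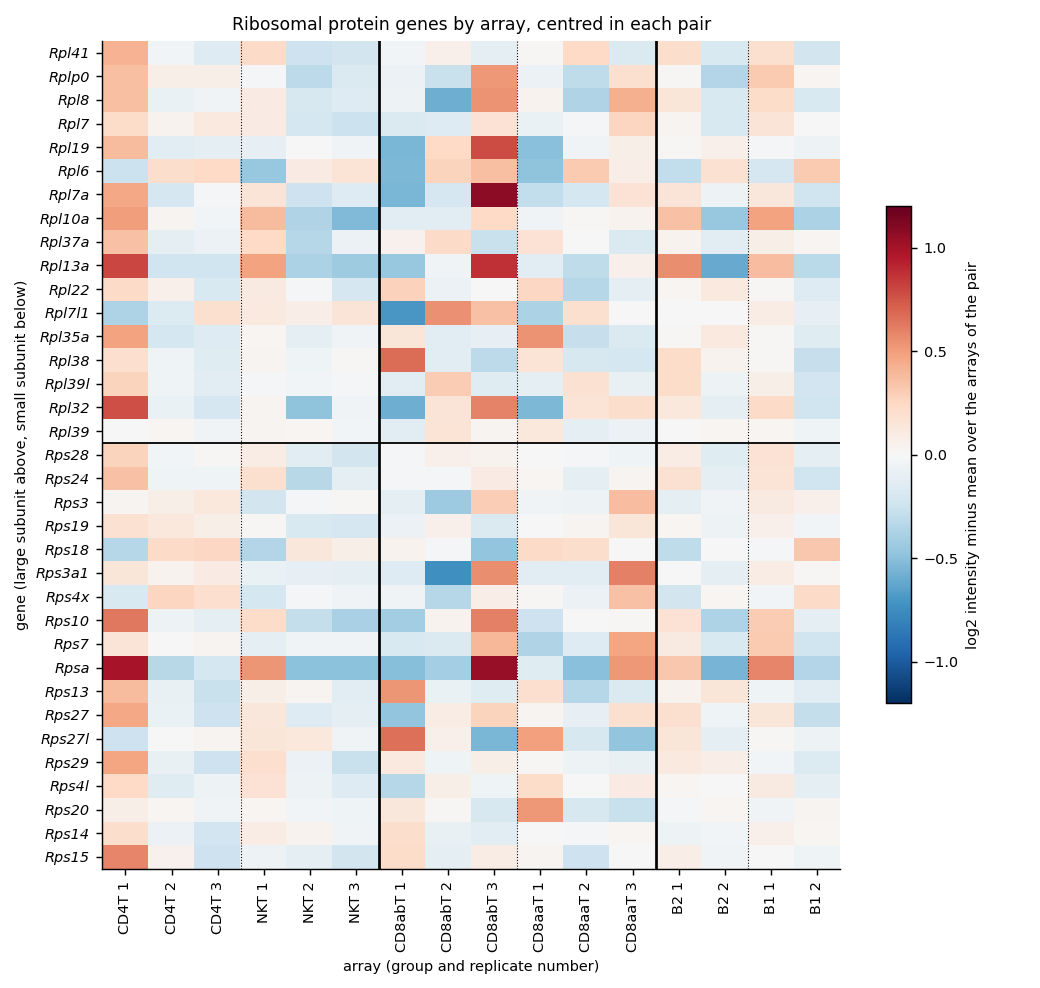
Log2 intensity of each ribosomal protein gene (rows, large subunit above the line, small subunit below) on each array (columns), minus the gene's mean over the arrays of its pair, with solid lines between pairs and dotted lines between groups; colours stop at 1.2 on either side. CD4T replicate 1 is the array with the most genes above their pair mean in the first pair, while Rps18, Rpl6 and Rps4x are below theirs on it.

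The arrays' control probe sets for 18S ribosomal RNA moved with these shifts in the spleen and peritoneal groups and not in the RTOC groups. Their geometric mean was 644, 119 and 119 in CD4T replicates 1 to 3 and 421, 127 and 134 in NKT, so that replicate 1 was several-fold above the others in both groups. In B2 it was 608 and 142 and in B1 444 and 69.5. In the RTOC groups it was 156, 487 and 341 in CD8abT and 118, 228 and 204 in CD8aaT, highest in replicate 2, where the members' median lay apart from the other arrays by -0.12 and -0.15. The beta-actin controls for the 3′ and 5′ ends, whose ratio grows as labelled RNA gets shorter, gave ratios of 7.02, 3.59 and 3.71 in CD4T and 5.34, 3.56 and 3.72 in NKT, again with replicate 1 high. They were 6.57, 11.6 and 7.92 in CD8abT and 5.80, 5.76 and 5.15 in CD8aaT, higher in CD8abT at each number, and 4.19 to 5.31 over B1 and B2. The same ratio for Gapdh was 24.0, 30.4 and 9.47 in CD8abT and 20.9, 17.6 and 7.37 in CD8aaT, so replicate 3, where the RTOC members were highest, stood well below the others. The part of these controls in the shifts was not tested beyond fits with the 18S control or the beta-actin ratio as a covariate, whose medians are given with each pair.

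**Figure D2:**
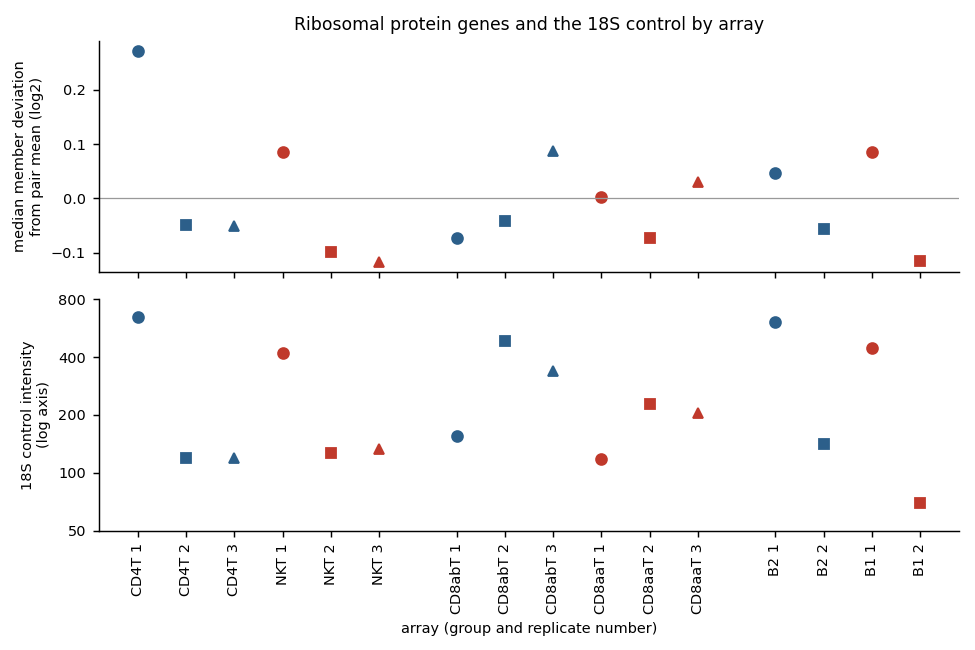
Above, the median over the 35 genes of each gene's log2 intensity minus its mean over the arrays of the pair; below, the geometric mean intensity of the 3 control probe sets for 18S ribosomal RNA on a log axis. Blue is the adaptive and red the innate-like group, and circle, square and triangle are replicates 1, 2 and 3; in NKT, CD4T, B1 and B2 the circles are high in both panels.

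Of the genes behind the gates, Cd8b1 and Ighd differed as the gates would have them, and others did not follow the gates as closely. Cd8b1 was at 5.36 in CD8aaT against 10.87 in CD8abT (mean log2), and Ighd at 7.70 in B1 against 8.95 in B2. Cd8a, gated as positive in both RTOC groups, was lower in CD8aaT, with a difference of -0.80 (adjusted p 0.0296 in limma). Of 6 T cell markers 0 lay higher in CD8aaT than in CD8abT. Cd4, gated as positive in both splenic T cell groups, differed by -0.64 in NKT (adjusted p 0.109 in limma). The dividing-cell genes Mki67 and Top2a were at 7.39 and 7.57 in CD8aaT and at 7.40 and 7.54 in CD8abT. The NK1.1 gene Klrb1c had no probe set with 1 symbol. Itgam, which encodes CD11b, was dim in B1 and B2 (5.37 and 5.36) and did not set them apart. In bulk RNA of sorted cells, fewer cells of a type and less RNA per cell cannot be told apart, and p-values measure only the spread between these samples, since no label says that they came from separate animals or sorts.

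No ribosomal protein gene was told apart from its level in the partner population in any of the 3 pairs. No member passed the test in NKT against CD4T, in CD8aaT against CD8abT or in B1 against B2 (limma on log2 intensities, Benjamini-Hochberg adjusted over 12422 probe sets, called under 0.05), where 1.63%, 0.185% and 1.14% of all probe sets were called. At an unadjusted p under 0.05 the counts were 1 of 35, 0 and 0, against 6.21%, 6.03% and 4.78% of all probe sets. The median difference of the members, innate-like minus adaptive, was -0.13 on the log2 scale in NKT, -0.04 in CD8aaT and -0.01 in B1, beside -0.03, -0.05 and -0.05 over all probe sets. The member differences farthest from 0 were -0.34 for Rpl10a in NKT, -0.31 for Rpl19 in CD8aaT and 0.34 for Rplp0 in B1, or 1.26-fold, 1.24-fold and 1.26-fold.

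A missed threshold does not show that levels are the same, and the intervals say how large a difference these arrays leave room for. The 95% interval lay wholly inside a 2-fold difference in either direction for 32 of 35 genes in NKT, 33 in CD8aaT and 33 in B1. Inside 1.5-fold it lay for 20, 20 and 13 genes. The widest intervals belonged to Rpsa, from -1.34 to 0.74 in NKT, from -1.12 to 0.95 in CD8aaT and from -1.04 to 1.5 in B1. With the replicate number as a block, the interval lay inside 2-fold for all 35 genes and inside 1.5-fold for 31 genes in NKT and 32 in CD8aaT. Correlations between arrays bore out each number in CD8aaT and CD8abT, but only replicate 1 in NKT and CD4T. No member was called with the block in NKT (lowest adjusted p 0.107, limma, where 4.84% of all probe sets were called) or in CD8aaT (lowest 0.129, where 3.20% were called), and none in B1 with a block on numbers that were not shown to pair the arrays (lowest 0.264, where 2.84% were called).

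**Figure D3:**
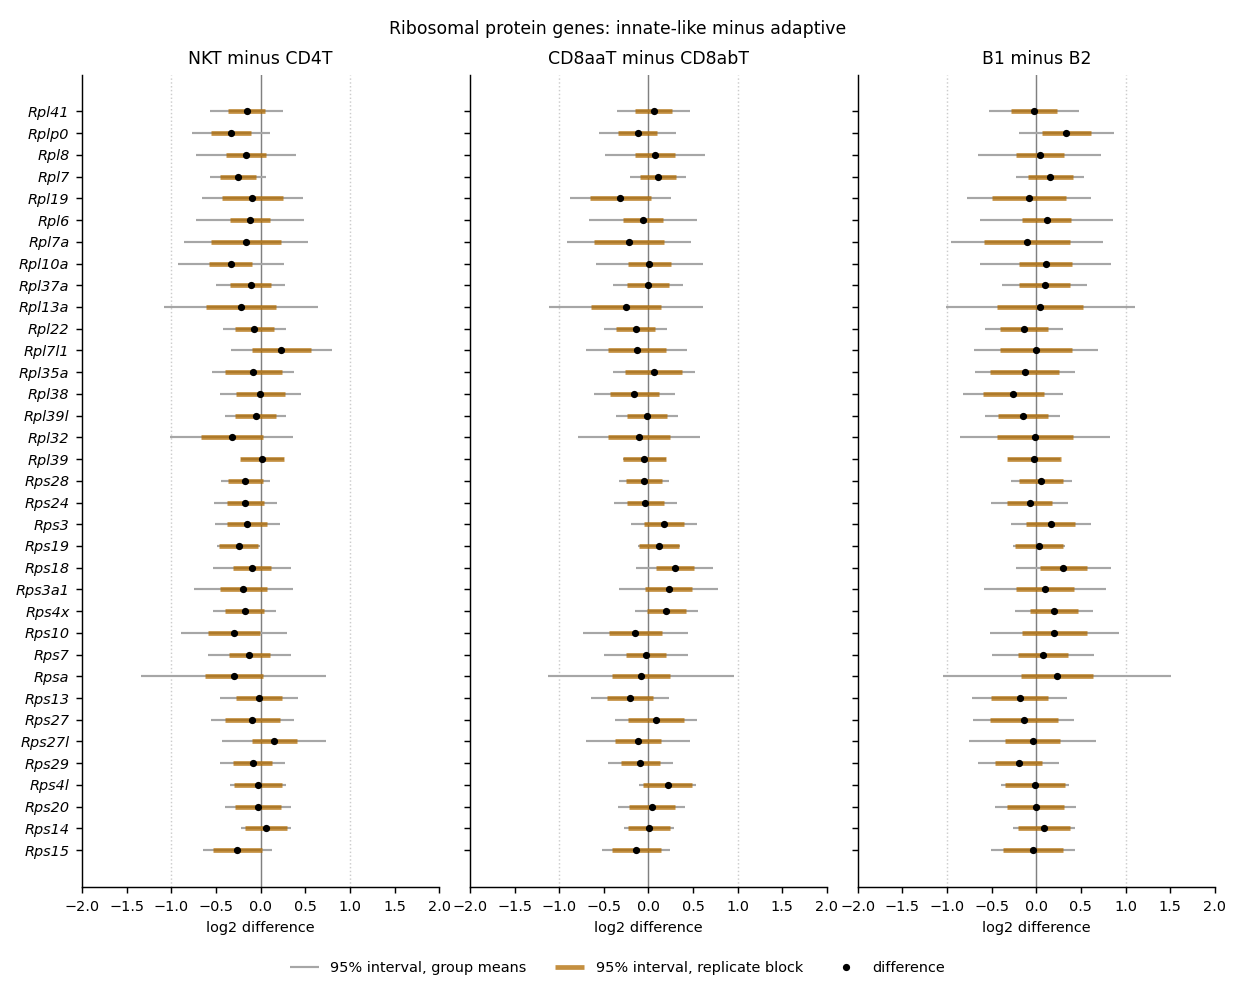
Log2 difference, innate-like minus adaptive, of each ribosomal protein gene (rows, large subunit above) in each pair, with the 95% interval of the fit on group means (thin grey) and of the fit with the replicate number as a block (thick); dotted lines mark 2-fold. All points lie between -0.34 and 0.34, and Rpsa has the widest grey intervals.

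In NKT cells 31 of the 35 genes lay below 0, where 56.9% of all probe sets did, against 21 genes in CD8aaT (60.8% of all probe sets) and 18 in B1 (62.8%), counts at or under those shares. Split by array number, the median of the members was -0.20, -0.10 and -0.07 for NKT minus CD4T replicates 1, 2 and 3, beside -0.05, -0.02 and 0.02 over all probe sets. Genes below 0 numbered 32, 26 and 25 of 35. Lower in NKT on all 3 same-numbered arrays were 21 of the 35 genes (60%), against 17.8% of all probe sets, and higher on all 3 were 0, against 18.3%. Lower on numbers 2 and 3, whatever number 1 showed, were also 21 genes (31.2% of all probe sets); this count holds the former and could not be smaller. Among probe sets above the median brightness of the array, 20 of 27 members (74.1%) were lower on all 3, against 16.2%. Members varied together within groups (mean pairwise r 0.18, against 0.04 over all probe sets), so these counts do not hold that many separate observations. Numbers 2 and 3 were also not shown to pair the NKT and CD4T arrays.

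The shift was small. After quantile normalization of all 16 arrays the members' median was -0.10 with 28 of 35 below 0, and 12 members (34.3%) were lower on every same-numbered array, against 18.6% of all probe sets. Without CD4T replicate 1 the members' median was 0.01, with 17 of 35 below 0 (41.3% of all probe sets). Without replicate 1 of every group it was -0.09, with 25 below 0 (50.1% of all probe sets). The median was -0.14 with the 18S control as a covariate and -0.11 with the beta-actin ratio. Of the macrophage markers, 6 of 8 lay higher in NKT than in CD4T and 2 passed the test: Lyz2, which encodes lysozyme, at 6.58 against 4.50, and Csf1r, the receptor for a macrophage growth factor, at 6.42 against 5.82. Their summed intensity was 446 to 524 on NKT arrays and 307 to 448 on CD4T arrays, and their part in the members' shift was not tested.

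**Figure D4:**
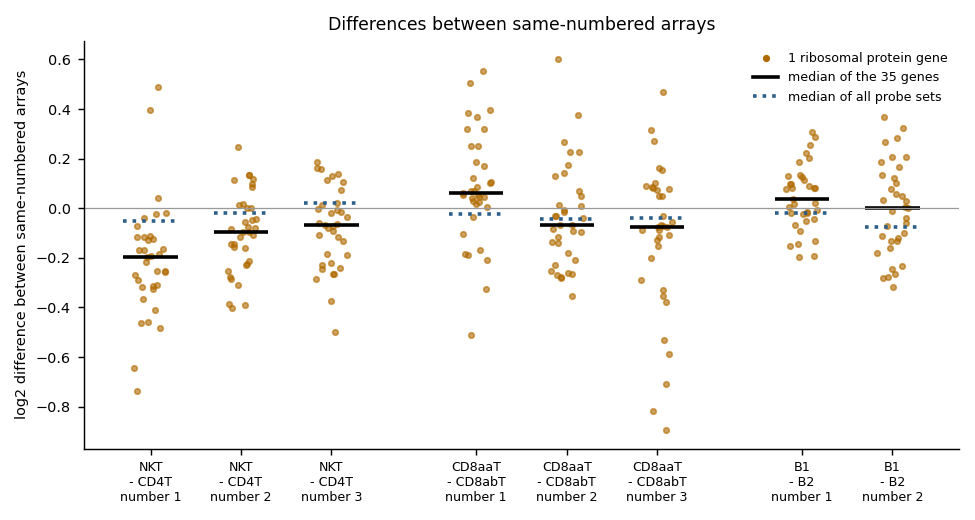
Log2 difference between same-numbered arrays of a pair (innate-like minus adaptive), 1 point per ribosomal protein gene, with the median of the 35 genes (solid bar) and of all 12422 probe sets (dotted bar). The solid bar is below the dotted bar and below 0 on all 3 NKT numbers, and lies on both sides of 0 among the CD8aaT numbers.

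In NKT against CD4T the arrays of the groups did not overlap for 5 genes, all lower in NKT (Rplp0, Rps3, Rps3a1, Rps7 and Rps19, 14.3%), against 5.02% of all probe sets lower and 7.19% higher without overlap. None was higher. Rps19, a small-subunit protein needed to process the precursor of 18S RNA and the gene most often mutated in Diamond-Blackfan anaemia, read 12.58, 12.52 and 12.47 in CD4T and 12.41, 12.21 and 12.20 in NKT. All 3 NKT values were below all 3 CD4T values, although the nearest were close. The difference was -0.25 ± 0.11 (SE), with an unadjusted p of 0.0421 and an adjusted p of 0.727 in limma, so Rps19 was not called. It was also the member with the smallest spread within groups (SD 0.09), where Rpsa had the largest (0.68).

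Rps3a1, a small-subunit protein, read 12.48, 12.38 and 12.44 in CD4T and 12.26, 12.24 and 12.22 in NKT. The groups were tight and apart, but the fitted difference of -0.19 ± 0.26 took its error from all 6 groups, and in the RTOC groups this gene ran from 11.26 to 12.60. Rps3, which lines the entry of the messenger RNA channel, read 12.68, 12.72 and 12.78 in CD4T against 12.43, 12.64 and 12.67 in NKT, a difference of -0.15 ± 0.17. Rps7 read 11.31, 11.16 and 11.20 in CD4T against 11.06, 11.12 and 11.12 in NKT, a difference of -0.13 ± 0.22. None of these was called (adjusted p 1.00 each in limma).

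Rpl10a, Rplp0, Rpl32, Rpsa and Rps10 had the lowest differences in NKT, -0.34 ± 0.28, -0.33 ± 0.20, -0.33 ± 0.32, -0.30 ± 0.48 and -0.30 ± 0.27 (SE). Rpsa, the small-subunit protein also known as the laminin receptor precursor, read 10.62, 9.30 and 9.42 in CD4T and 10.16, 9.14 and 9.14 in NKT. Replicate 1 was more than 2-fold above the other arrays in CD4T, and the groups overlapped. Rps10 read 12.26, 11.56 and 11.51 in CD4T and 11.85, 11.34 and 11.24 in NKT, with the same high replicate 1 and again an overlap. At the other end stood 2 paralogs: Rpl7l1 at 0.23 ± 0.26 and Rps27l, a target of p53, at 0.15 ± 0.27.

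Rplp0, the large-subunit protein that anchors the stalk where elongation factors dock, was the member whose difference varied most between pairs. It read 12.72, 12.43 and 12.43 in CD4T against 12.35, 12.04 and 12.19 in NKT, so NKT was lower on every array. In the RTOC groups it read 12.38, 12.19 and 12.97 in CD8abT against 12.39, 12.15 and 12.65 in CD8aaT, which overlapped (-0.12 ± 0.20). In the B cells it read 12.60 and 12.24 in B2 against 12.91 and 12.61 in B1, higher in B1 with the nearest arrays almost equal (0.34 ± 0.25). NKT and B1 thus lay on opposite sides of their partners for this gene. Rplp0 was not alone in the direction of this contrast. The NKT difference was below the B1 difference for 25 of the 35 genes, against 45.4% of all probe sets. That held for all 20 genes with a mean log2 above 8 (median -0.27) and for 5 of the 15 others. After quantile normalization these counts were 15 and 6.

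The difference between the NKT and the B1 difference of Rplp0 was -0.67 ± 0.32 (95% interval from -1.35 to 0.01), with an adjusted p of 0.851 in limma. No member was called in this comparison of pairs, where 1.35% of all probe sets were, and 0 were past an unadjusted 0.05, against 6.11%. With the replicate block the same difference had a standard error of 0.16 and an adjusted p of 0.0365, and with median centring of each array added 0.0312, where 4.61% of all probe sets were called with the block alone. No other member was called in any setting tried, and 1 of 35 (2.86%) is under the share over all probe sets. With the block and quantile normalization the adjusted p was 0.0742 and the call was lost. The numbers of the B cell arrays, and numbers 2 and 3 of NKT and CD4T, were not shown to pair them. The members' median in this comparison was -0.20, against 0.02 over all probe sets, and 0.01 without CD4T replicate 1.

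**Figure D5:**
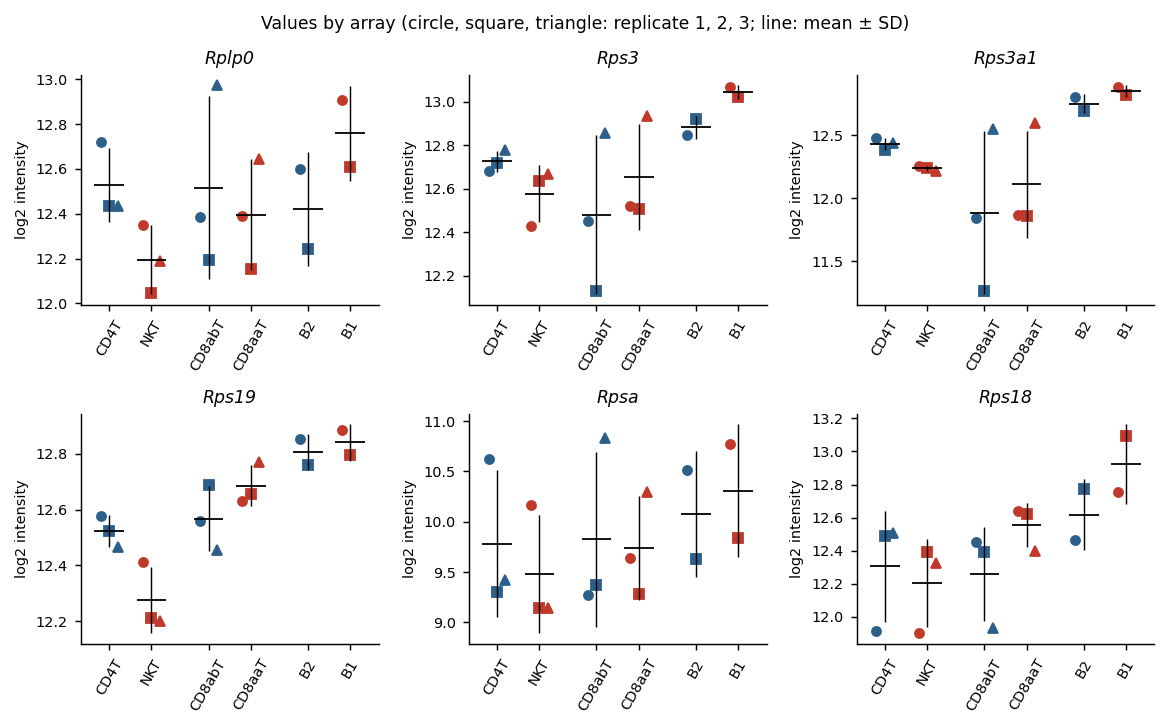
Log2 intensity by array of 6 ribosomal protein genes in the 6 groups (blue adaptive, red innate-like), with the mean (line) and SD (bar) of each group; axes do not start at 0 and differ between genes. Rplp0 is lower in NKT than CD4T and higher in B1 than B2 on every array, Rpsa is high in replicate 1 (circles) of CD4T, NKT, B2 and B1, and Rps18 is low there.

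Between CD8aaT and CD8abT no member was free of overlap in either direction, against 5.76% of all probe sets higher and 5.51% lower. Higher on all 3 same-numbered arrays were 5 members (14.3%, against 16.4%): Rpl7, Rps3, Rps3a1, Rps4x and Rps18. Lower on all 3 were 4 (11.4%, against 25.2%): Rpl22, Rps13, Rps15 and Rps29. Rps18, a protein of the small subunit's head, read 12.45, 12.39 and 11.93 in CD8abT and 12.64, 12.62 and 12.40 in CD8aaT. It was the highest member difference of the pair, 0.29 ± 0.20 (adjusted p 0.895 in limma), and the array that was low in both groups was replicate 3.

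The medians by number were 0.06, -0.07 and -0.07 in this pair, and 27, 12 and 13 members lay above 0. The pooled median of -0.04 had no stable side: it was 0.06 without CD8abT replicate 3, 0.06 with the 18S control as a covariate and 0.08 with the beta-actin ratio. Rpl19 stood lowest at -0.31 ± 0.26, followed by Rpl13a, which has a further role in silencing messages after interferon gamma, at -0.25 ± 0.40. The other probe set of Rpl19 was at 0.07 ± 0.24. Rpl13a read 8.75, 9.16 and 10.08 in CD8abT and 9.07, 8.89 and 9.26 in CD8aaT, so that 1 CD8abT array was far above the rest and the groups overlapped. Rpl22, which is dispensable for translation in general but needed for the development of alpha beta T cells, was at -0.14 ± 0.17 by its brightest probe set and at 0.54 ± 0.29 by its other, neither called.

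In B1 against B2 the members' median of -0.01, with 17 genes above 0, had no stable side: it was 0.07 with 26 above 0 when the 18S control was a covariate, -0.02 with the beta-actin ratio, and 0.05 after median centring of each array. The arrays did not overlap for a share of members near or under that over all probe sets. Higher in B1 were 4 (Rplp0, Rps3, Rps3a1 and Rps14, 11.4%, against 12.2%) and lower were 5 (Rpl19, Rpl22, Rpl38, Rps13 and Rps29, 14.3%, against 20.1%). Rpl38, known from mouse work on translation of Hox messages, read 5.91 and 5.73 in B2 and 5.71 and 5.41 in B1, the lowest member difference of the pair at -0.26 ± 0.26. Both B1 values were below both B2 values, by little for the nearest arrays. The other probe set of Rpl38 was at 0.04 ± 0.15. Rps18 read 12.47 and 12.77 in B2 and 12.75 and 13.09 in B1, an overlap, with a difference of 0.30 ± 0.25. Of the macrophage markers 5 of 8 lay higher in B1, and Lyz2 passed the test at 7.17 against 4.88, with the summed list at 607 to 767 in B1 and 507 to 531 in B2; its part in the members' values was not tested.

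Between pairs, 0 members were called in the NKT against the CD8aaT difference (0.692% of all probe sets called) and 0 in the CD8aaT against the B1 difference (0.733%). Unadjusted, Rps19 alone was past 0.05 in the former (-0.37 ± 0.16, unadjusted p 0.0349, adjusted p 0.858, against 5.05% of all probe sets) and 0 in the latter (4.11%). Averaged over the 3 pairs the members' median was -0.04, beside -0.05 over all probe sets, and it took either side: 0.01 with the 18S control or the beta-actin ratio as a covariate, 0.01 without B2 replicate 1 and -0.10 without B1 replicate 1. In that average 0 were called (1.61% of all probe sets) and 0 were past an unadjusted 0.05 (7.89%), and the 95% interval lay inside 2-fold for all 35 genes and inside 1.5-fold for 32.

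The subunits gave similar medians. The median over the 17 large-subunit genes was -0.12 in NKT, -0.06 in CD8aaT and -0.02 in B1, and over the 18 small-subunit genes -0.14, -0.01 and 0.05. Bright and dim genes differed in NKT, with a median of -0.17 over the 20 genes with a mean log2 above 8 and of -0.03 over the 15 below. In B1 the medians were 0.10 and -0.04, with 4 of the 20 bright and 14 of the 15 dim genes below 0, against 62.8% of all probe sets. These B1 values depended on array scaling. After quantile normalization the medians were 0.0275 and 0.0028, with 8 bright and 7 dim genes below 0. After median centring of each array 3 bright and 7 dim genes were below 0. The members' mean log2 ran from 3.71 for Rps15 to 13.13 for Rps28, and only 27 of 35 lay above the middle of all probe sets (5.56). RMA compresses differences of dim probe sets, and a dim probe set does not show that its gene was little expressed. The paralogs read were Rpl7l1, Rpl39l, Rps4l and Rps27l; Rpl39l, in mice a mostly testicular copy of Rpl39, differed by -0.06 ± 0.16, -0.02 ± 0.16 and -0.15 ± 0.20 in NKT, CD8aaT and B1.

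Probe sets of 1 gene did not always point the same way. Of the 10 genes with several, 2 had probe sets of both signs in NKT, 6 in CD8aaT and 6 in B1, and none of the 24 probe sets was called. The lowest adjusted p belonged to a dimmer probe set of Rps28 in NKT, at -0.34 ± 0.12 (adjusted p 0.400 in limma). The brightest of Rps28 was at -0.17 ± 0.13 there, and its remaining probe set had the other sign, at 0.27 ± 0.38. Rps4x, the X-linked small-subunit gene with 5 probe sets, was below 0 in NKT by all of them, from -0.30 to -0.05.

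Genes that make, load or regulate ribosomes were read beside the ribosomal proteins. Of 12 elongation factors and other messages of the terminal oligopyrimidine type, 36 initiation factors, 41 genes of nucleolar assembly and ribosomal RNA transcription and 61 mitochondrial ribosomal proteins, 0 were called in any pair (limma), and of 12 regulators 1 was. Over all probe sets 1.63% were called in NKT, 0.185% in CD8aaT and 1.14% in B1. The regulator called was Myc, the transcription factor that drives ribosome production, at 5.34 and 4.92 in B2 against 6.57 and 7.10 in B1. The B1 arrays were clear of the B2 arrays, and Myc rose by 1.70 ± 0.27 on the log2 scale (adjusted p 0.00443 in limma). In the same pair the ribosomal proteins had a median of -0.01 and the nucleolar genes one of 0.16, with 28 of 41 above 0, where 62.8% of all probe sets lay below 0; the list was not tested. In NKT and CD8aaT Myc differed by -0.35 ± 0.22 and 0.19 ± 0.22 and was not called.

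With the replicate block, a few of these genes passed in the T cell pairs. Mxd4, a Max partner that opposes Myc, read 8.75, 7.33 and 7.58 in CD4T and 9.53, 8.42 and 8.34 in NKT, where replicate 1 was high in both groups and NKT was higher at each number (0.87 ± 0.14, adjusted p 0.00331 with the block in limma). The groups overlapped, and numbers 2 and 3 were not shown to pair these arrays. Without the block Mxd4 was not called. In CD8aaT, Nap1l1, a histone chaperone with an oligopyrimidine message, rose by 0.82 ± 0.16 (adjusted p 0.0239), the nucleolar assembly factor Rrs1 by 0.89 ± 0.21 (0.0482), the polymerase subunit gene Polr1d by 0.64 ± 0.11 (0.0152) and the mitochondrial Mrpl50 by 0.56 ± 0.12 (0.0355). Mybbp1a, a nucleolar protein that binds Myb, fell there, with a difference of -0.59 ± 0.12 (0.0275). Over their lists these were 1 of 12, 2 of 41 higher with 1 lower, and 1 of 61 genes in CD8aaT, where 3.20% of all probe sets were called with the block, so the mitochondrial count is under that share. Mxd4 was 1 of 12 regulators in NKT, where 4.84% were called. Without the block none of these genes was called, and the lowest adjusted p over these lists in CD8aaT was 0.188 in limma. The CD8aaT and CD8abT arrays overlapped for Rrs1, Polr1d and Mrpl50. Rrs1 read 7.32, 6.63 and 5.73 in CD8abT and 7.69, 7.51 and 7.17 in CD8aaT.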

How the data were processed

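Single-colour Affymetrix mouse arrays measured total RNA of 16 sorted samples, 1 array each. The authors deposited intensities, 1 per probe set on a linear scale, made with RMA per the submitters' processing notes; the RMA version, and whether all arrays entered 1 run, are not stated in the labels. Array medians ran from 30.4 to 76.2, close within and far apart between pairs, so levels were compared within pairs only. RMA sets an intensity relative to the array, so a change in total RNA per cell is not seen. Array number, 2 or 3 per group, limits the precision. The file held 12488 probe sets; 66 controls were left out. Symbols came from the platform annotation (10833 with 1 symbol, 396 with several, 1193 unnamed) and 10817 were matched by Entrez number to RefSeq GRCm38.p6, with 0 symbols changed.

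Log2 intensities were fitted with limma 3.58.1 in R 4.3.3 (lmFit, eBayes, two-sided) as 6 group means over 16 arrays, with no filter on dim probe sets, and adjusted by Benjamini-Hochberg over 12422. The fit was tested on simulated data with noise independent between probe sets and planted differences of 2 on the log2 scale. These were larger than any member difference, so that test does not bear on differences of the size seen here. Same-numbered arrays deviated together (r over probe sets 0.76, 0.65 and 0.67 in NKT and CD4T, 0.64, 0.60 and 0.66 in CD8aaT and CD8abT). Across numbers, CD8aaT and CD8abT arrays correlated at -0.06 at most, so each number was set apart. Replicates 2 and 3 of NKT and CD4T also correlated across numbers (0.57 and 0.67), so only replicate 1 was set apart there. The pairing was read from these values, as no label gives it. In B1 and B2 (0.69) 2 arrays a group are too few to show it. Named were members called, the 5 highest and 5 lowest differences per pair, stalk genes and paralogs, and called genes of the related lists; genes without overlap or moving on every array, and those with extreme spread, were named after their values were seen. Members, lists and the 4 sequence words were chosen with earlier results of these data known.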

Additional observations from a re-analysis of the deposited data

Results flagged for a closer look

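Rplp0 differed between pairs when the replicate number was a block. Its NKT minus CD4T difference minus its B1 minus B2 difference was -0.67 ± 0.16 (adjusted p 0.0365, limma with the block), because it was lower in NKT on 3 of 3 same-numbered arrays (-0.37, -0.39 and -0.25) and higher in B1 on both (0.31 and 0.37). This was 1 of 35 members (2.86%), under the 4.61% of all probe sets called in the comparison, and with the block and quantile normalization the call was lost (adjusted p 0.0742). Without the block the adjusted p was 0.851, and over the other settings tried it ran from 0.0312 to 1.00. The B cell numbers, and numbers 2 and 3 of NKT and CD4T, were not shown to pair the arrays. The direction was not particular to Rplp0. The same contrast was below 0 for 25 of the 35 members, and for all 20 with a mean log2 above 8.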

How the results depend on the processing

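Beside the fit described, 30 settings were tried, 16 of them leaving out 1 array. No ribosomal protein gene was called in any pair under any of them; the exception among the comparisons of pairs is NKT minus CD4T against B1 minus B2, with 1 gene (Rplp0) called with the replicate block and 1 with the block and median centring of each array. The block changed no other call of a member. In B1 against B2 it called Nap1l1, Eif1a, Eif2s2 and Mrpl52 among the related genes (0.91, 0.78, -0.88 and 0.85 on the log2 scale). Over their lists these were 1 of 12, 1 higher and 1 lower of 36, and 1 of 61 genes, where 2.84% of all probe sets were called. In that pair the numbers were not shown to pair the arrays. Leaving out 1 array moved the members' median between -0.18 and 0.01 in NKT, between -0.053 and 0.062 in CD8aaT and between -0.10 and 0.10 in B1. The CD8aaT median was 0.079 with the beta-actin ratio and 0.057 with the 18S control as a covariate. The count of 21 genes lower on every same-numbered NKT array was 12 after quantile normalization and 8 after centring arrays on the members' median deviation, a setting chosen after seeing the data that takes out the members' common shift by construction and so does not bear on its stability (it put the median of all probe sets at 0.07 in place of -0.03). The combinations of block and scaling and the counts with numbers 2 and 3 alone were also chosen after seeing the data. Of 5020 differences of the 24 named members under these settings, 2 were past the threshold, both of Rplp0, and 86 moved by over 1 within-group SD. Dim probe sets and 2 arrays per B cell group limit the smallest difference that could be called. The cause of these changes was not tested.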
